A study of Mus musculus with 12 samples.

Results

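Immediate early genes, the genes of the AP-1 transcription factors and the feedback inhibitors of the ERK pathway were measured by RNA sequencing in CTL (cytotoxic T lymphocytes, the killer cells of the CD8+ lineage) from mice. The 37 genes were chosen by name and each of the 37 symbols had 1 row among the 13283 genes of the expression table. CTL came from control mice carrying GzmB cre alone (WT) or from FOXO1-GFPfl/fl Gzmb cre+ mice (FOXO1-GFP KO), so that both genotypes expressed a Cre recombinase driven by the granzyme B promoter and the second lost the transcription factor FOXO1 once that promoter became active. All mice were female and adult. T cells were activated through CD3 and CD28 for 48 h, expanded with 20 ng/mL of IL-2 plus IL-12 at 2 ng/mL, and then cultured for 24 h with 10 µM IC87114, which inhibits the phosphoinositide 3-kinase catalytic subunit p110δ (the groups with PI3Kdi), or with the DMSO vehicle. Medium was refreshed shortly before harvest, and live CD8+ cells were sorted, with the further demand that FOXO1-GFP KO cells had lost GFP. The 4 groups of 3 libraries are called WT, WT+PI3Kdi, FOXO1-GFP KO and FOXO1-GFP KO+PI3Kdi. Values are FPKM, reads per kilobase of exon scaled to library size. The depth estimated from these values was 12.9 to 48.0 M reads per library (M, 1000000 reads).

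Immediate early genes are transcribed within minutes of a signal without new protein synthesis. In T cells the antigen receptor and cytokine receptors activate RAS and the kinase ERK, which phosphorylates factors bound beside serum response factor (SRF) at CArG boxes and so switches on Fos and Egr genes. FOS and JUN proteins pair as AP-1, while dual specificity phosphatases (DUSP), Sprouty and SPRED proteins are induced by the same pathway and turn it down again. FOXO1 is held out of the nucleus by AKT, a kinase downstream of PI3K, so that inhibition of p110δ can return FOXO1 to the nucleus.

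Promoter windows from RefSeq, running from 250 bases before to 50 bases after the start of a transcript on GRCm38.p6, were found for 31 of the 37 genes and held 37 windows. Dusp4, Egr1, Egr3, Ier2, Klf10 and Zfp36l2 had no window and were not searched. The windows were searched on both strands for 5 sequences. A CArG box (CC, 6 bases that are each A or T, then GG) was held by 1.63% of the 32851 windows of all genes. Among the genes described here it was in 6 of 37 windows (16.2%), from Egr2, Dusp5 and Zfp36, most of them from Egr2. The CRE bound by CREB (TGACGTCA) was in 1.79% of all windows and in 3 of these 37 (8.11%), from Btg2, Dusp1 and Maff. The AP-1 site TGACTCA was in 5.20% of all windows and in 0 of these 37. The FOXO sequence TGTTTAC was in 3.65% of all windows and in 2 of these 37 (5.41%), from Btg1 and Junb. The EGR sequence GCGTGGGCG was in 0.612% of all windows and in 1 of these 37 (2.7%), from Maff. The windows of Egr2, Dusp5 and Zfp36 are shown because they carry a CArG box, that of Dusp1 because it carries a CRE, and that of Spry1 because its mRNA differed between the genotypes. Capitals mark the CArG box or the CRE, and the Spry1 window held none of the 5 sequences. Egr2 (chr10:67537316-67537615, plus strand), Dusp5 (chr19:53528895-53529194, plus strand), Zfp36 (chr7:28379179-28379478, minus strand), Dusp1 (chr17:26508423-26508722, minus strand) and Spry1 (chr3:37639697-37639996, plus strand) read, 5′ to 3′ on their own strand:
Egr2: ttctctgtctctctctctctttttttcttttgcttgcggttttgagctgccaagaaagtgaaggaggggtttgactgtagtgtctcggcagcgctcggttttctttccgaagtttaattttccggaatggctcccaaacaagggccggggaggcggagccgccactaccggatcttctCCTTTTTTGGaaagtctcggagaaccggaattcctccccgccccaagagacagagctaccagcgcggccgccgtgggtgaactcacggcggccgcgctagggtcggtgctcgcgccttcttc
Dusp5: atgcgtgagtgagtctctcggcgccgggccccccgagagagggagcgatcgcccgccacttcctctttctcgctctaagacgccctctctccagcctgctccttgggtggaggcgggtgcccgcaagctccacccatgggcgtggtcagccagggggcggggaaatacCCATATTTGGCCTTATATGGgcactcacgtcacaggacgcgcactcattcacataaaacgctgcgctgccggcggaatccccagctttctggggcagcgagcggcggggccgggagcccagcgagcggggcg
Zfp36: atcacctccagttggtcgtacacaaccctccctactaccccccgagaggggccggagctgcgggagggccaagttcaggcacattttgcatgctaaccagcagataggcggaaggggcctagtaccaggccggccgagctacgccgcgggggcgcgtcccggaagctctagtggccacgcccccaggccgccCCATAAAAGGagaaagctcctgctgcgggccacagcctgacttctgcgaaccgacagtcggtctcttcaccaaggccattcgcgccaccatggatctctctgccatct
Dusp1: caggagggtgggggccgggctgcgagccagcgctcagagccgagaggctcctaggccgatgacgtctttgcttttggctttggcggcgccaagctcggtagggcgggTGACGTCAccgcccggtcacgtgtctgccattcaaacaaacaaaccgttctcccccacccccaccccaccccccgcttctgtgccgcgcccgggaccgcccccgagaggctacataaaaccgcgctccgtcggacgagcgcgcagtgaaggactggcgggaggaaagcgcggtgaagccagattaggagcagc
Spry1: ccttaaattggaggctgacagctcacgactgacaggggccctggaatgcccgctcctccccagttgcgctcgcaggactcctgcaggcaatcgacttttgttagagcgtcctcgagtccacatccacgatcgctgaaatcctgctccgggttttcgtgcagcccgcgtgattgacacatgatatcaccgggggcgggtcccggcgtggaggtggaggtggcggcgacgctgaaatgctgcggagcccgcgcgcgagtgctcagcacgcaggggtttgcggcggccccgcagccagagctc
The Egr2 box began 72 bases before the start site, and Dusp5 held 2 adjoining boxes that began 82 and 72 bases before it. In Zfp36 the box lay 58 bases and in Dusp1 the CRE 143 bases before the start. The Egr2 box shown lies at chr10:67537494-67537503, and another Egr2 box stood downstream of it, at chr10:67537797-67537806, in 3 of the other Egr2 windows. A match is a run of letters and was not tested as a binding site.

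The genes covered most of the range of expression in CTL. Dusp2, a nuclear phosphatase of ERK, had the highest mean over the 12 libraries (180 FPKM, above 98.1% of all genes), followed by Jund (159 FPKM), Dusp5 (52.8 FPKM) and Junb (44.0 FPKM). The lowest were Spry1 (0.223 FPKM), Egr2 (0.442 FPKM), Fos (0.628 FPKM), Egr3 (0.873 FPKM), Nr4a1 (0.927 FPKM) and Nr4a2 (0.993 FPKM), so that 31 of 37 genes averaged 1 FPKM or more. Gene positions are those of GENCODE M21 on GRCm38. These are bulk samples, in which fewer cells of a type and less RNA per cell cannot be told apart, and the labels do not say that libraries with the same replicate number share a mouse.

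**Figure D1:**
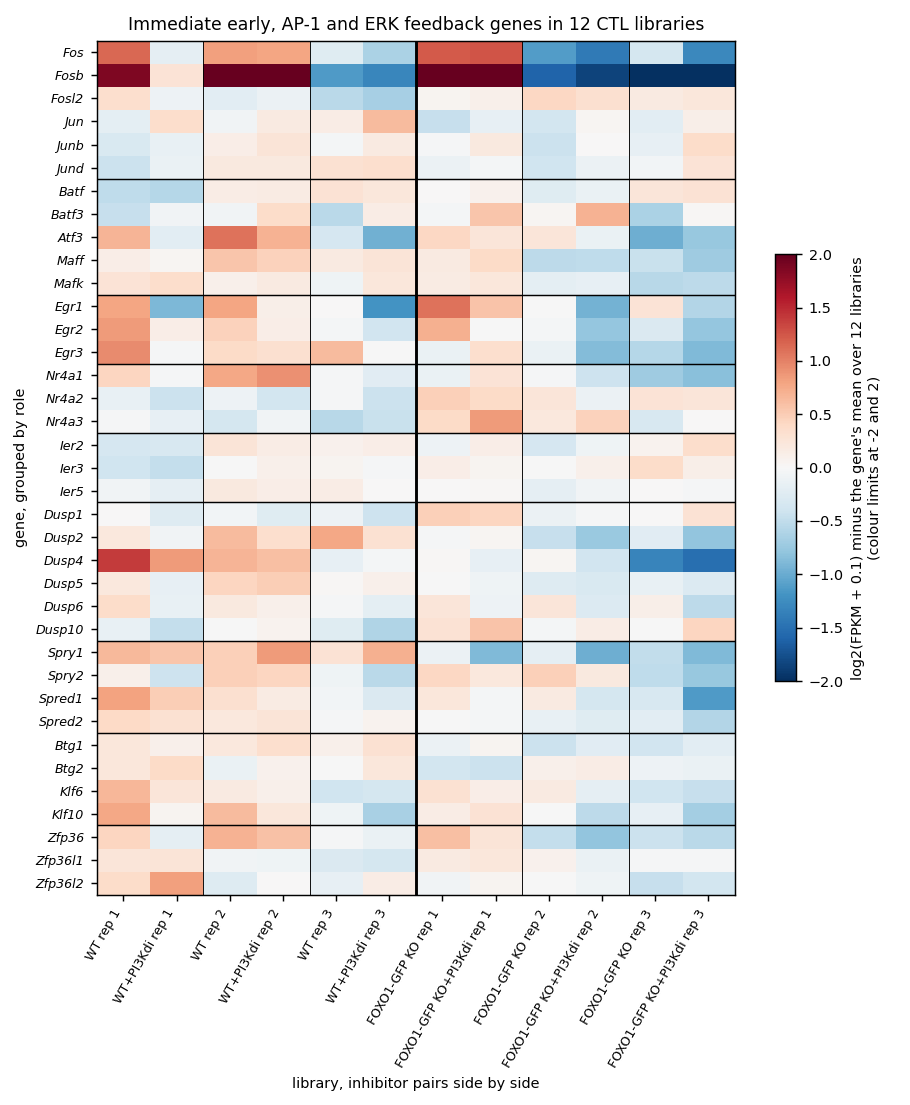
Heat map of the 37 genes (rows, grouped by role) in the 12 libraries (columns, each vehicle library beside the PI3Kdi library of the same number). Colour is log2(FPKM + 0.1) minus the gene's mean over the 12 libraries, and the mean of Fosb, Fos, Atf3 and Egr1 over a pair is highest in WT pair 2 and in FOXO1-GFP KO pair 1.

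To ask which of these genes depend on p110δ, CTL with PI3Kdi were compared with vehicle CTL of the same genotype. An mRNA was called when its Benjamini-Hochberg adjusted p over all 13283 genes was under 0.05 and its fold change over 1.5, which is 0.585 on the log2(FPKM + 0.1) scale. In the fit of group means 0 of 37 genes were called in WT, where 0.0979% of all genes were, and 0 of 37 in FOXO1-GFP KO, where 0.0452% of all genes were. At an unadjusted p under 0.05 there were 3 and 5 of the genes (5.14% and 5.17% of all genes), and voom on estimated reads called 0 in either genotype. Vehicle and PI3Kdi libraries of the same number resembled each other within a genotype, so the fit was repeated with that pair as a block. With the replicate block 1 of 37 genes was called in WT (Egr1, lower) against 2.57% of all genes, and 4 of 37 in FOXO1-GFP KO (Egr1, Egr2 and Spry1 lower, Batf3 higher) against 2.79%. At any fold change 5 of 37 passed the adjusted p in WT against 7.41% of all genes, 3 higher and 2 lower, and 9 of 37 in FOXO1-GFP KO against 10.1%, 4 higher and 5 lower. An unadjusted p under 0.05 with the block was found for 16 genes in WT and 15 in FOXO1-GFP KO (23.7% and 29.5% of all genes). Without the block 0 of 37 passed the adjusted p at any fold change (smallest, 0.519 in WT and 0.494 in FOXO1-GFP KO). Each adjusted p given below for a PI3Kdi response is from the fit with the block, unless stated. The median log2 fold change with PI3Kdi was -0.15 over the 37 genes and -0.04 over all genes in WT, and -0.06 and -0.02 in FOXO1-GFP KO.

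**Figure D2:**
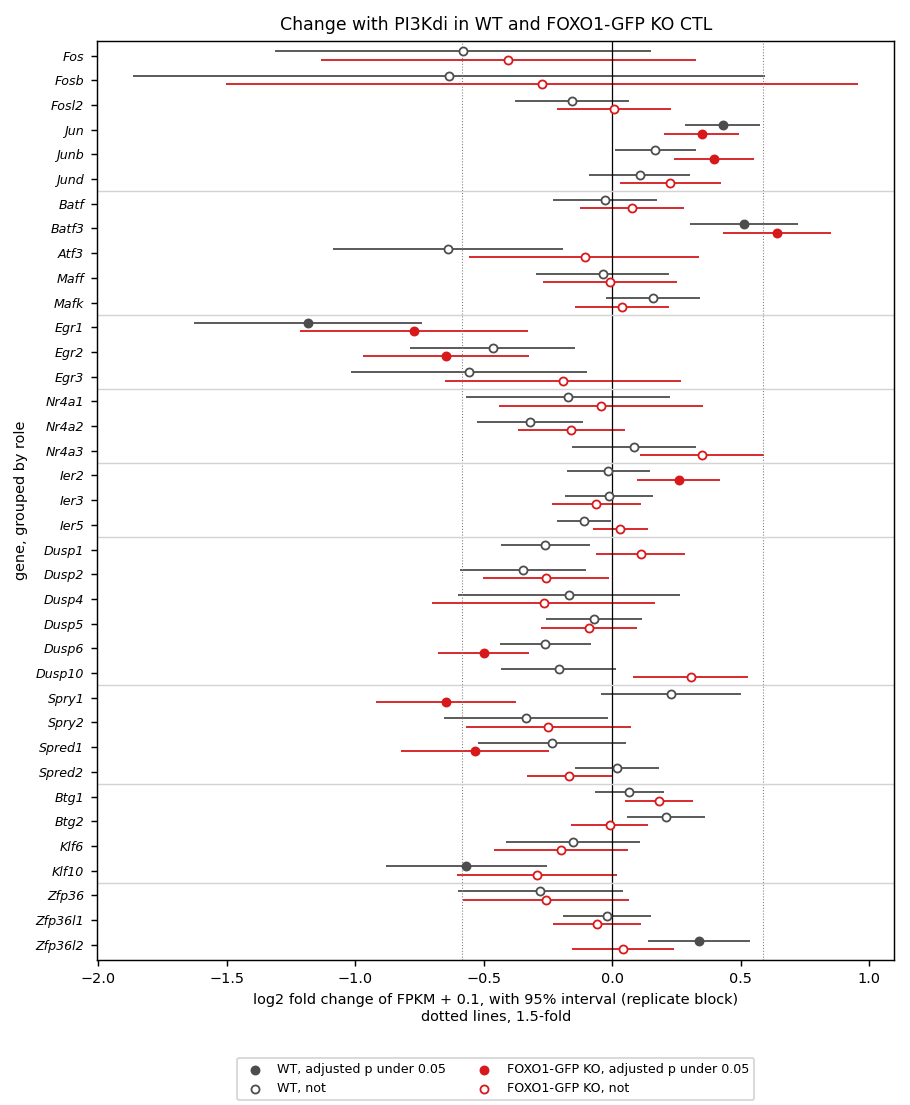
Log2 fold change of each gene with PI3Kdi (x axis, on the log2(FPKM + 0.1) scale, replicate block) in WT and FOXO1-GFP KO CTL, with 95% intervals and dotted lines at 1.5-fold. Filled points have an adjusted p under 0.05, and the Egr1 point lies lowest in both genotypes, at -1.19 and -0.77, while Batf3 lies highest, at 0.51 and 0.64.

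The EGR factors, zinc finger proteins that carry the ERK signal to later genes, were the group with the lowest responses to PI3Kdi. All 3 had a negative log2 fold change in both genotypes, with median values of -0.56 (WT) and -0.65 (FOXO1-GFP KO). Egr1, which is induced by receptor signals through SRF, was at 9.05, 9.10 and 5.25 FPKM in WT libraries and at 2.76, 5.65 and 2.23 FPKM with PI3Kdi. In the FOXO1-GFP KO libraries it was at 11.21, 5.18 and 6.35 FPKM, and with PI3Kdi at 7.79, 2.67 and 3.44 FPKM. Each of the 6 pairs was lower with PI3Kdi, by 30.5 to 69.5%, while the libraries of the groups overlapped. With the replicate block Egr1 fell by 1.19 ± 0.20 (SE of the fit, 3 pairs, log2 scale) in WT (adjusted p = 0.0049). It fell by 0.77 ± 0.20 in FOXO1-GFP KO (adjusted p = 0.0355). Without the block the same differences had adjusted p = 0.731 and 0.933. Here and below, the SE of a log2 change comes from the fit, which pools the spread of all 12 libraries and is moderated across genes. It is not the spread of the 3 pairs alone. Leaving out WT pair 1, the pair with the widest change, gave -0.94 (adjusted p = 0.106) in WT and an adjusted p of 0.0598 in FOXO1-GFP KO, and leaving out FOXO1-GFP KO pair 2 or 3 gave -0.69 (adjusted p = 0.167) or -0.73 (adjusted p = 0.16) in FOXO1-GFP KO.

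Egr2 (chr10:67535475-67542188, plus strand), a factor that restrains T cell activation, was at the level of few reads per library. It was at 0.82, 0.60 and 0.40 FPKM in WT libraries and at 0.46, 0.46 and 0.29 FPKM with PI3Kdi. FOXO1-GFP KO libraries held 0.74, 0.40 and 0.32 FPKM, and those with PI3Kdi 0.41, 0.20 and 0.20 FPKM, from 12 to 98 estimated reads over the 12 libraries. All 6 pairs were lower with PI3Kdi. The call was in FOXO1-GFP KO alone (a fall by 0.65 ± 0.15, adjusted p = 0.0201), the value in WT was -0.47 ± 0.15 (adjusted p = 0.0791), and the difference between the 2 responses was not called. Leaving out FOXO1-GFP KO pair 1, 2 or 3 gave adjusted p = 0.0527, 0.131 or 0.0593, and without the block it was 0.933. Egr3, which acts with Egr2, had 1.35 ± 0.287 FPKM (SD, n = 3) in WT and 0.877 ± 0.142 in WT+PI3Kdi, with an adjusted p of 0.132. Its libraries did not overlap between these groups, and 5.81% of all genes were lower in WT+PI3Kdi in this way.

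**Figure D3:**
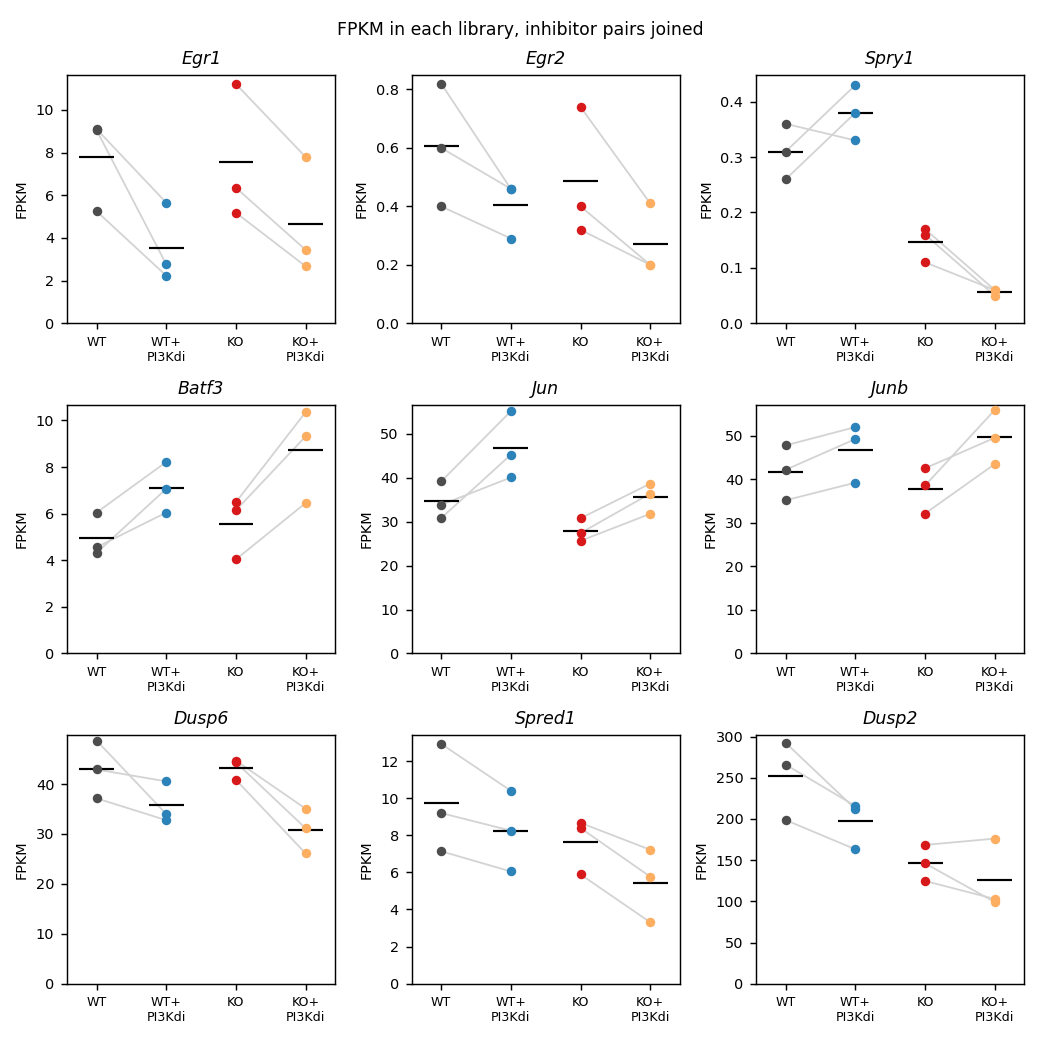
FPKM (y axis, from 0) of 9 genes in each library of WT, WT+PI3Kdi, FOXO1-GFP KO (KO) and FOXO1-GFP KO+PI3Kdi (KO+PI3Kdi). Points are libraries, grey lines join libraries of the same number and black bars are means of 3, and the lines of Egr1, Egr2, Dusp6 and Spred1 go down and those of Batf3, Jun and Junb go up in all 6 pairs.

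The JUN proteins are the partners that every AP-1 dimer of the FOS family needs. With the replicate block, Jun rose with PI3Kdi in both genotypes and Junb in FOXO1-GFP KO. Jun (chr4:95049034-95052222, minus strand) was at 30.82, 33.85 and 39.17 FPKM in WT libraries and at 45.26, 40.08 and 55.17 FPKM with PI3Kdi. In the FOXO1-GFP KO libraries it was at 25.66, 27.42 and 30.79 FPKM, and with PI3Kdi at 31.80, 36.41 and 38.68 FPKM. In neither genotype did the groups overlap. With the replicate block Jun rose by 0.43 ± 0.07 in WT (adjusted p = 0.00262) and by 0.35 ± 0.07 in FOXO1-GFP KO (adjusted p = 0.00982), below the 1.5-fold threshold. Junb, whose protein pairs with BATF, was at 35.16, 47.76 and 42.16 FPKM in WT libraries, 39.20, 51.95 and 49.21 with PI3Kdi, 42.50, 32.12 and 38.55 in FOXO1-GFP KO libraries and 49.50, 43.47 and 55.89 with PI3Kdi. All 6 pairs were higher, and Junb rose in FOXO1-GFP KO (0.40 ± 0.07, adjusted p = 0.00702), while the value in WT was 0.17 ± 0.07 (adjusted p = 0.186). Jund, the most abundant of the family, had 116.53, 179.26 and 193.85 FPKM in WT libraries and 143.16, 178.84 and 197.45 with PI3Kdi. It had 144.96, 118.48 and 151.56 FPKM in FOXO1-GFP KO and 151.92, 145.29 and 188.79 with PI3Kdi, and the differences (0.11 and 0.23) had adjusted p = 0.514 and 0.121.

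The FOS proteins showed no response that passed the test. Fosl2, the most abundant of the 3 in these cells at 5.03 to 10.63 FPKM, had log2 fold changes of -0.16 (WT) and 0.01 (FOXO1-GFP KO). Fosb, like Atf3, Egr3, Nr4a2, Dusp4 and Zfp36, is named for a pattern seen in the data. It was at 3.32, 4.16 and 0.33 FPKM in WT libraries and at 1.03, 3.80 and 0.28 FPKM with PI3Kdi, and at 4.01, 0.21 and 0.12 FPKM in FOXO1-GFP KO and 3.97, 0.16 and 0.05 FPKM with PI3Kdi. High libraries were those of WT pairs 1 and 2 and FOXO1-GFP KO pair 1, whatever the treatment, and the mean of a pair spanned 13-fold in WT and 46.9-fold in FOXO1-GFP KO. The 95% interval of the PI3Kdi response was -1.87 to 0.60 in WT and -1.50 to 0.96 in FOXO1-GFP KO, and both intervals included 1.5-fold changes in either direction. Fos spanned 0.12 to 1.30 FPKM, from 6 to 106 estimated reads.

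Among the genes of the BATF, ATF3 and small MAF proteins, Batf3 was the one whose response passed the adjusted p with the replicate block. BATF3 is a factor of CD8+ T cell memory and dendritic cell development. The gene (chr1:191097847-191108945, plus strand) was at 4.56, 6.05 and 4.32 FPKM in WT libraries and at 6.05, 8.22 and 7.07 with PI3Kdi. FOXO1-GFP KO libraries had 6.15, 6.50 and 4.04 FPKM, and with PI3Kdi 9.32, 10.36 and 6.46. All 6 pairs were higher, and with the replicate block Batf3 rose by 0.64 ± 0.10 in FOXO1-GFP KO (adjusted p = 0.00247, called) and by 0.51 ± 0.10 in WT (adjusted p = 0.00795, below 1.5-fold). Leaving out any 1 pair kept the FOXO1-GFP KO value at 0.63 to 0.66 with adjusted p of 0.00421 to 0.0245, and without the block the adjusted p was 0.755. Batf, the more abundant relative, had 23.63, 37.02 and 40.75 FPKM in WT libraries, 22.63, 37.68 and 39.28 with PI3Kdi, 33.70, 28.33 and 39.59 in FOXO1-GFP KO libraries and 35.69, 30.45 and 40.86 with PI3Kdi. Its values followed the pair, which took 96.6% of its variation, and its responses were -0.03 and 0.08 (adjusted p = 0.887 and 0.595). Atf3, a stress induced factor, had -0.64 ± 0.21 in WT (adjusted p = 0.0819), lower in all 3 pairs, and -0.11 in FOXO1-GFP KO. Among genes of at least 1 FPKM with the block, or with the pair as fixed terms, Atf3 was called in WT. Maff and Mafk had responses between -0.04 and 0.16, none past the test.

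The NR4A nuclear receptors, which report antigen receptor signals and take part in T cell exhaustion, had no response that passed the test. Nr4a3, the most abundant, was at 3.46, 2.73 and 2.35 FPKM in WT libraries and 3.13, 3.34 and 2.54 with PI3Kdi. It was at 4.59, 4.06 and 2.80 FPKM in FOXO1-GFP KO and 6.40, 4.85 and 3.53 with PI3Kdi, higher in all 3 pairs (0.35 ± 0.11, adjusted p = 0.0657). Nr4a2 was lower with PI3Kdi in all 6 pairs, with adjusted p = 0.0626 in WT and 0.277 in FOXO1-GFP KO. The IER proteins, small products of immediate early genes, stayed between 21.82 and 48.00 FPKM. Ier2 was at 29.69, 44.73 and 39.74 FPKM in WT libraries, 30.04, 41.48 and 41.05 with PI3Kdi, 34.85, 29.70 and 39.53 in FOXO1-GFP KO libraries and 41.11, 35.49 and 48.00 with PI3Kdi, and rose by 0.26 ± 0.07 in FOXO1-GFP KO (adjusted p = 0.0464) with -0.02 in WT. Ier5, the most abundant, had 39.21, 47.15 and 45.72 FPKM in WT libraries, 36.32, 44.83 and 41.20 with PI3Kdi, 41.09, 36.42 and 41.17 in FOXO1-GFP KO libraries and 41.73, 39.22 and 40.18 with PI3Kdi, the narrowest range of the 37 genes (1.30-fold).

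Of the 6 MAPK phosphatases, which remove the activating phosphates of ERK, JNK or p38, all 6 had a negative response in WT (median -0.23) and 4 of 6 in FOXO1-GFP KO (median -0.17). Dusp6 (chr10:99263231-99267489, plus strand), the cytoplasmic phosphatase of ERK, was at 48.72, 42.93 and 37.15 FPKM in WT libraries and 33.98, 40.54 and 32.76 with PI3Kdi. It was at 44.69, 44.35 and 40.83 FPKM in FOXO1-GFP KO and 35.07, 31.13 and 26.10 with PI3Kdi, where the groups did not overlap. With the replicate block Dusp6 fell by 0.50 ± 0.08 in FOXO1-GFP KO (adjusted p = 0.00405), below 1.5-fold, and had -0.26 ± 0.08 in WT (adjusted p = 0.0728). Dusp2 was at 198.69, 265.95 and 292.40 FPKM in WT libraries, 163.17, 215.82 and 212.08 with PI3Kdi, 168.50, 124.72 and 146.05 in FOXO1-GFP KO libraries and 176.18, 102.86 and 99.17 with PI3Kdi, with adjusted p of 0.0822 and 0.152 for the responses. Dusp10, which acts on p38 and JNK, was at 2.29, 2.55 and 2.15 FPKM in WT and 1.81, 2.68 and 1.64 with PI3Kdi, but at 3.14, 2.48 and 2.53 in FOXO1-GFP KO and 3.83, 2.85 and 3.48 with PI3Kdi. The log2 response had opposite signs, -0.21 in WT against 0.31 in FOXO1-GFP KO, a difference of 0.51 ± 0.15 whose adjusted p was 0.202 with the replicate block.

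The Sprouty and SPRED proteins, which block RAS and RAF activation, had negative responses for 4 of 4 genes in FOXO1-GFP KO (median -0.39) and for 2 of 4 in WT (median -0.11). Spry1 (chr3:37639947-37644598, plus strand) was at 0.36, 0.31 and 0.26 FPKM in WT libraries and 0.33, 0.43 and 0.38 with PI3Kdi, against 0.17, 0.16 and 0.11 in FOXO1-GFP KO libraries and 0.06, 0.05 and 0.06 in those with PI3Kdi. FOXO1-GFP KO libraries were all below WT libraries, and those with PI3Kdi were the lowest. With the replicate block Spry1 fell by 0.65 ± 0.13 with PI3Kdi in FOXO1-GFP KO (adjusted p = 0.00982), had 0.23 ± 0.13 in WT (adjusted p = 0.291), and the difference of the responses was -0.88 (95% interval -1.26 to -0.49, adjusted p = 0.0964). Leaving out FOXO1-GFP KO pair 1 or 2 gave adjusted p = 0.0593 or 0.106 for the fall, and without the block it was 0.494. The block applied 1 consensus correlation of 0.757 to all genes, while the pair took 1.21% of the variation of Spry1 itself. With the pair as fixed terms the fall had adjusted p = 0.0421. A pseudocount of 1 FPKM, with the block, gave -0.12 (adjusted p = 0.0527). Spred1 was at 12.93, 9.20 and 7.14 FPKM in WT libraries, 10.40, 8.25 and 6.05 with PI3Kdi, 8.67, 8.39 and 5.89 in FOXO1-GFP KO libraries and 7.22, 5.77 and 3.31 with PI3Kdi. It was lower in all 6 pairs and fell by 0.54 ± 0.13 in FOXO1-GFP KO (adjusted p = 0.0273), below 1.5-fold, with -0.23 in WT (adjusted p = 0.307). Spred2, the most abundant of the 4, had 22.54, 19.81 and 16.90 FPKM in WT libraries, 21.17, 20.48 and 18.10 with PI3Kdi, 17.06, 15.55 and 14.88 in FOXO1-GFP KO libraries and 16.71, 14.56 and 11.43 with PI3Kdi, and its responses did not pass the test.

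BTG proteins slow proliferation, and KLF6 and KLF10 are zinc finger factors, KLF10 being induced by TGF-beta. Klf10 was at 21.39, 19.49 and 11.77 FPKM in WT libraries and 13, 14.55 and 7.90 with PI3Kdi, lower in all 3 pairs, and fell by 0.57 ± 0.14 (adjusted p = 0.0331), just short of the 1.5-fold threshold. In the FOXO1-GFP KO libraries it was at 13.79, 12.37 and 11.07 FPKM and with PI3Kdi at 15.21, 8.67 and 7.74, with -0.29 (adjusted p = 0.191). Btg1 had 45.02, 44.53 and 40.99 FPKM in WT libraries, 41.36, 48.24 and 47.35 with PI3Kdi, 35.52, 28.56 and 29.41 in FOXO1-GFP KO libraries and 39.89, 32.89 and 33.17 with PI3Kdi. Its responses were 0.07 and 0.18 (adjusted p = 0.552 and 0.0799). The ZFP36 proteins bind AU-rich elements and speed the decay of cytokine and immediate early mRNAs. Zfp36l2, the most abundant of the 3, was at 51.66, 33.46 and 35.77 FPKM in WT libraries and 70.23, 40.28 and 44.14 with PI3Kdi, and rose by 0.34 ± 0.09 (adjusted p = 0.0455). In the FOXO1-GFP KO libraries it was at 38.18, 39.84 and 29.09 FPKM and with PI3Kdi at 41.49, 37.66 and 30.86 (0.04, adjusted p = 0.783). Zfp36 was lower with PI3Kdi in all 6 pairs, with responses of -0.28 and -0.26 that did not pass the test.

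Over the 6 pairs, 8 of the 37 genes were lower with PI3Kdi every time (Dusp6, Egr1, Egr2, Fosb, Nr4a2, Spred1, Spry2 and Zfp36), which was 21.6% of them and held for 14% of all genes. Batf3, Jun, Junb and Mafk were higher every time, 10.8% against 9.20% of all genes. Libraries with and without PI3Kdi did not overlap in WT for Jun, higher (1 of 37, against 4.43% of all genes). The same held for Egr3, Nr4a2 and Dusp1, lower (3 of 37, against 5.81%). In FOXO1-GFP KO it held for Jun and Junb, higher (2 of 37, against 5.28%), and Dusp6 and Spry1, lower (2 of 37, against 4.80%). The difference between the responses of the 2 genotypes was called for 0 of 37 genes in either fit, against 0% of all genes without and 0.0226% with the block. At an unadjusted p under 0.05 that difference held for 1 gene without and for 7 with the block (1.51% and 10.8% of all genes), and voom on estimated reads called 0. A p that misses the threshold does not show that the genotypes responded alike.

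To ask which of the genes depend on FOXO1, FOXO1-GFP KO CTL were compared with WT CTL. Foxo1 itself was at 5.77 to 10.46 FPKM in the 6 WT libraries with or without PI3Kdi and at 0.58 to 1.75 FPKM in the 6 FOXO1-GFP KO libraries. Without PI3Kdi 0 of 37 genes were called, against 0.331% of all genes, and 0 of 37 with the replicate block against 0.233%. At an unadjusted p under 0.05 there were 6 without and 7 with the block (6.51% and 5.09% of all genes), and voom on estimated reads called 0. With PI3Kdi 1 of 37 was called, against 1.45% of all genes, and 1 of 37 with the replicate block against 1.18%. An unadjusted p under 0.05 was found there for 13 genes without and 15 with the block (10.2% and 9% of all genes). The median log2 difference of the 37 genes, FOXO1-GFP KO minus WT, was -0.21 without and -0.22 with PI3Kdi. The medians over all genes were -0.01 and 0.01. Of the 37 genes, 27 without and 24 with PI3Kdi were on the lower side. Both comparisons use the same 3 pairs per genotype.

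The gene called was Spry1, whose log2 difference with PI3Kdi was -1.61 ± 0.17 (adjusted p = 0.000831) without and -1.61 ± 0.25 (adjusted p = 0.00821) with the block. Its levels were 0.38 ± 0.05 FPKM (SD, n = 3) in WT CTL with PI3Kdi and 0.0567 ± 0.00577 FPKM in FOXO1-GFP KO CTL with PI3Kdi. These rest on 54 estimated reads for the WT group against 11 for the other (5, 3 and 3 in its libraries), so the depth-scaled WT level was 6.85 times the other, with an exact 95% interval of 3.54 to 14.5 that covers counting error only. Without PI3Kdi the difference was -0.73 (adjusted p = 0.12 without and 0.551 with the block). It rested on 90 and 30 estimated reads, a ratio of 2.02 (1.33 to 3.17). The libraries did not overlap in either comparison. With the block, leaving out WT pair 2 or 3 or FOXO1-GFP KO pair 1 or 2 raised the adjusted p with PI3Kdi to between 0.0592 and 0.105. A pseudocount of 1 FPKM shrank the difference to -0.39, below the fold threshold, and with genes of at least 1 FPKM alone Spry1 was not tested.

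**Figure D4:**
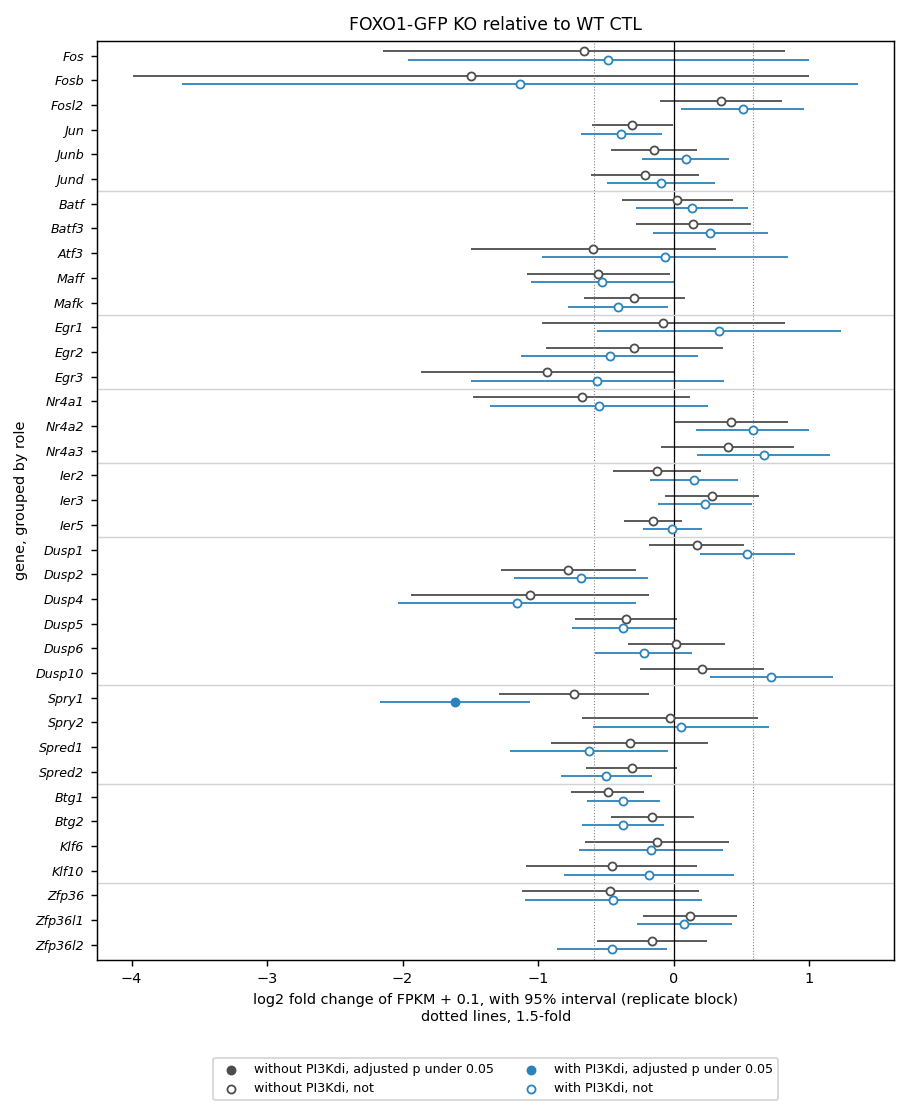
Log2 difference of each gene between FOXO1-GFP KO and WT CTL (x axis, on the log2(FPKM + 0.1) scale, replicate block) without and with PI3Kdi, with 95% intervals and dotted lines at 1.5-fold. Filled points have an adjusted p under 0.05, and the sole filled point is Spry1 with PI3Kdi at -1.61.

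Several genes lay apart between the genotypes in every library, and Spry1 with PI3Kdi was the one of them that passed the test. Without PI3Kdi Jun, Egr3, Dusp2, Dusp5, Spry1 and Btg1 were lower in all 3 FOXO1-GFP KO than in all 3 WT libraries (6 of 37, against 6.79% of all genes) and Nr4a2 was higher (1 of 37, against 3.54%). With PI3Kdi Jun, Dusp4, Spry1, Spred2 and Btg1 were lower (5 of 37, against 7.90%) and Fosl2, Nr4a2, Nr4a3, Dusp1 and Dusp10 higher (5 of 37, against 6.85%). Dusp2 was at 252 ± 48.3 FPKM in WT and 146 ± 21.9 in FOXO1-GFP KO, a difference of -0.78 with adjusted p = 0.332 under the block, and at 197 ± 29.4 and 126 ± 43.4 with PI3Kdi (-0.69, adjusted p = 0.283). Btg1 differed by -0.49 without PI3Kdi (adjusted p = 0.232) and by -0.37 with it (adjusted p = 0.284). Dusp4, a nuclear phosphatase of ERK, was at 7.01 ± 3.66 and 3.29 ± 1.5 FPKM without PI3Kdi and at 5.85 ± 1.77 and 2.68 ± 1.18 FPKM with it, differences of -1.06 and -1.16 with adjusted p = 0.698 and 0.319. Dusp10 had the largest positive difference with PI3Kdi, 0.72 ± 0.21 (adjusted p = 0.184), and Spred2 had -0.50 (adjusted p = 0.226).

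Most of the variation of these genes lay between pairs of libraries of the same genotype. In a breakdown of the sum of squares of log2(FPKM + 0.1), the pair took a median of 52.5% over the 37 genes, genotype 25.3%, PI3Kdi 6.81% and the difference of responses 1.44%. The medians over all genes averaging 1 FPKM or more were 65.1, 8.27, 6.39 and 1.64%. The pair holds 4 of the 11 degrees of freedom and genotype 1, so the shares are a description and not a test. The pair was the largest share for 24 of 37 genes (80.3% of all genes of at least 1 FPKM), genotype for 10 (9.94%), among them Spry1 (82.1%), Btg1 (73.1%) and Nr4a2 (66.9%), and PI3Kdi for Dusp6 (58.7%), Batf3 (52.8%) and Jun (42.8%).

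**Figure D5:**
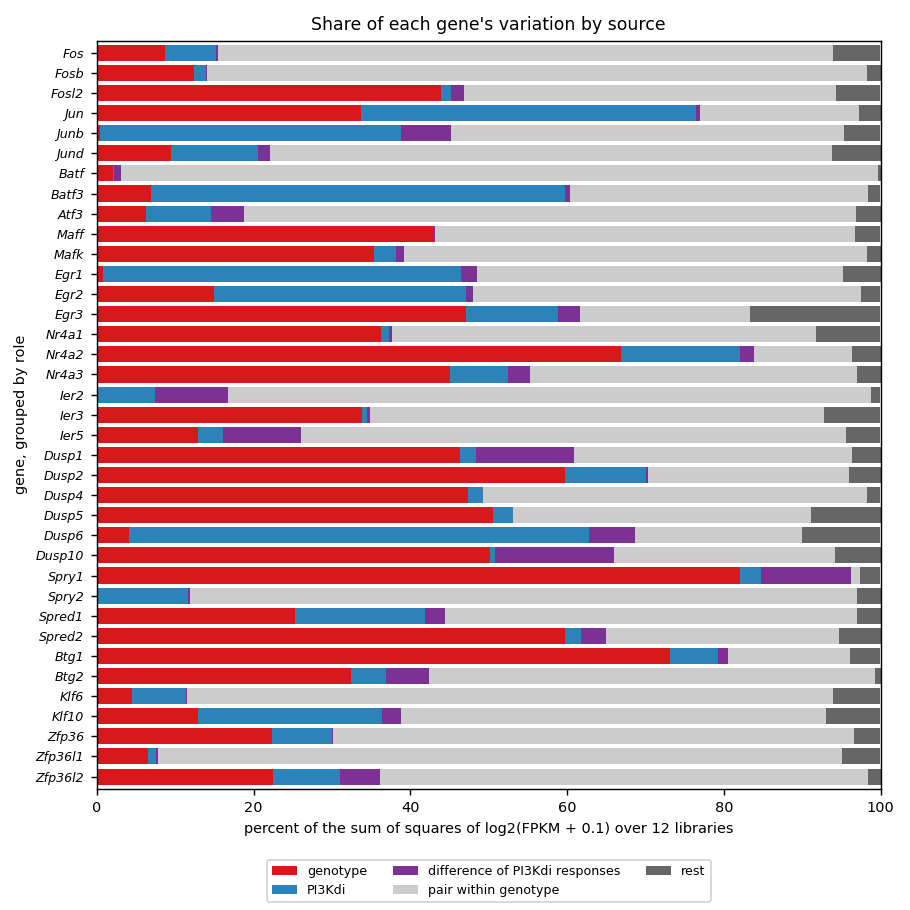
Percent of the sum of squares of log2(FPKM + 0.1) over 12 libraries (x axis) that falls to genotype, PI3Kdi, the difference of the PI3Kdi responses, the pair within genotype and the rest, for each gene. Grey pair shares fill most of the bars of Batf, Zfp36l1, Spry2 and Fosb, blue PI3Kdi shares lead in Dusp6, Batf3 and Jun, and Spry1 is mainly genotype.

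Pairs differed in a common direction for part of the genes in both genotypes. In FOXO1-GFP KO pair 1 held the highest mean of 27 of the 37 genes and pair 3 the lowest of 19. In WT pair 2 was highest for 18 and pair 1 for 14, and pair 3 was lowest for 22. These pair ranks were not counted over all genes. More than 2-fold differences between pairs were found for Fos, Fosb, Atf3, Nr4a1 and Dusp4 in WT and for Fos, Fosb, Atf3, Egr1, Egr2, Dusp4 and Zfp36 in FOXO1-GFP KO. Atf3 pair means were 4.36, 6.67 and 2.26 FPKM in WT and 4.43, 3.67 and 1.88 FPKM in FOXO1-GFP KO, in the same order as those of Fosb (2.17, 3.98 and 0.305 FPKM, and 3.99, 0.185 and 0.085 FPKM). Summed FPKM of the 4 myeloid markers present was 18.5, 30.2 and 41.9 in WT and 33.1, 37 and 34.8 in FOXO1-GFP KO libraries 1 to 3. Most of that sum was 1 gene, Fcer1g, at 17.66, 28.67 and 40.26 FPKM in WT and 30.59, 35.41 and 32.47 FPKM in FOXO1-GFP KO. Estimated depth in these libraries was 25.1, 48.0 and 27.9 M and 22.5, 32.8 and 12.9 M reads. The part of these markers and of depth in the spread was not tested.

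Genes of the surrounding pathway were read from lists. Each call or adjusted p given below for a PI3Kdi response is with the replicate block, and no such call holds without it. Over all genes the block called 2.57% in WT and 2.79% in FOXO1-GFP KO, and 7.41% and 10.1% passed the adjusted p. Between genotypes with PI3Kdi 1.45% of all genes were called without and 1.18% with the block. Of 30 genes of the RAS-ERK cascade, the replicate block called 0 for the response of WT and 1 for that of FOXO1-GFP KO CTL. That one was Rasgrp4, an activator of RAS, which rose by 0.87 ± 0.12 (adjusted p = 0.00153) and had 0.52 in WT (adjusted p = 0.0212). Rasa3, which switches RAS and RAP off, was lower in FOXO1-GFP KO+PI3Kdi than in WT+PI3Kdi (-0.60, adjusted p = 0.0129, and 0.0224 with the block) and was the sole call of that list between genotypes. Among 11 other MAPK phosphatases and feedback genes in the table, the 2 that passed the adjusted p in WT and the 5 in FOXO1-GFP KO were all lower with PI3Kdi, and the median response was -0.20 and -0.21. Phlda1 was called in WT (-0.59, adjusted p = 0.00898) and Etv5, an ERK induced ETS factor, in FOXO1-GFP KO (-0.72, adjusted p = 0.0401). Dusp7 was lower in FOXO1-GFP KO with PI3Kdi than in WT with PI3Kdi (-0.94, adjusted p = 0.044, and 0.025 with the block), at 3.25, 2.80 and 2.06 against 4.96, 5.34 and 5.26 FPKM.

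A list of 12 genes held other AP-1, ATF, MAF and BACH factors and Irf4, a partner of such factors. Bach2 and Irf4 were called higher with PI3Kdi in WT with the block (0.72, adjusted p = 0.00553, and 0.60, adjusted p = 0.0078). BACH2 represses AP-1 sites and IRF4 binds DNA beside BATF and JUN. Jdp2, a JUN dimerization protein that represses AP-1, was higher in FOXO1-GFP KO+PI3Kdi (12.02, 11.39 and 8.89 FPKM) than in WT+PI3Kdi (4.89, 4.77 and 4.59 FPKM), a difference of 1.15 ± 0.14 (adjusted p = 0.00191, and 0.00456 with the block). In this comparison 2 genes of the list were called higher without the block and 1 with it. Among 20 other immediate early genes 1 was called, Trib1, lower with PI3Kdi in WT (-0.63, adjusted p = 0.0142). In the JNK and p38 cascades (15 genes) Mapk11, the p38β kinase, was called higher with PI3Kdi in both genotypes (0.70, adjusted p = 0.00144, and 0.86, adjusted p = 0.00065), and Map2k6 lower in WT (-0.63, adjusted p = 0.0294). None of the 11 SRF, TCF and CREB factors, the 8 calcineurin and NFAT genes or the 9 heat shock genes was called in any comparison in either fit. Below 1.5-fold, Srf (-0.34, adjusted p = 0.0265), its coactivator Mrtfb (-0.41, adjusted p = 0.0491) and the chaperone Hsp90aa1 (-0.35, adjusted p = 0.0452) fell and Elk4, a partner of SRF, rose (0.20, adjusted p = 0.041) with PI3Kdi in FOXO1-GFP KO.

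All 10 CD8+ T cell and CTL markers were in the table, with a summed 8530 to 12400 FPKM per library. Most of that sum was Gzmb, at 7317.02 to 10955.02 FPKM, while Cd8a was at 139.05 to 253.21 FPKM. With PI3Kdi and the replicate block, 6 of the 10 markers were higher and 2 lower at the adjusted p in FOXO1-GFP KO. In WT 1 was higher and 2 lower. Of all genes, 10.1% passed in FOXO1-GFP KO and 7.41% in WT. Ifng, the cytokine interferon-γ, was the one called, lower for both genotypes, with -0.65 (adjusted p = 0.00656) for FOXO1-GFP KO and -0.97 (adjusted p = 0.000442) for WT. CD4+ T cell markers (3 of 4 in the table) summed to 4.96 to 8.24 FPKM, NK cell markers (2 of 3) to 2.17 to 5.66 FPKM and myeloid markers (4 of 9) to 18.5 to 43.4 FPKM, and the 5 erythroid markers were absent. Of the myeloid sum, Fcer1g alone was at 17.66 to 41.17 FPKM, and Lyz2 and Csf1r were among the absent markers. B cell markers (5 of 9, with Cd79a, Ms4a1 and Pax5 among those absent) summed to 19.3 to 25.8 FPKM in WT libraries and to 8.51 to 11.7 FPKM in FOXO1-GFP KO libraries. Of these, Ighm and Igkc were lower in FOXO1-GFP KO with PI3Kdi (-2.38, adjusted p = 0.000831, and -4.43, adjusted p = 0.00249), and Ighm also without it (-1.60, adjusted p = 0.0153). With the block, Igkc (1.35, adjusted p = 0.0294) and Cd4 (0.69, adjusted p = 0.0413) were called higher with PI3Kdi in WT. The part of these markers in the differences between groups was not tested.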

How the data were processed

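mRNA of 12 CTL libraries (4 groups of 3) was sequenced. The authors aligned reads with STAR 2.7.1a to GRCm38.p6, counted them per gene, filtered and TMM-scaled them in edgeR, and deposited FPKM with 2 decimals for 13283 genes. Limma 3.58.1 in R 4.3.3 was fitted here to log2(FPKM + 0.1) of all 12 libraries with 1 mean per group and a mean-variance trend, and tested on simulated data. Calls needed a fold change over 1.5 and a p under 0.05 after Benjamini-Hochberg adjustment across the table. Replicate numbers paired vehicle and PI3Kdi libraries within a genotype: deviations from group means correlated at 0.594 to 0.838 in the 6 pairs, so a fit with that replicate block (consensus correlation 0.757) is given beside the main one. Depth was recovered from the steps of low FPKM values (98.5 to 100% whole in held-out genes, 40% by chance). Estimated reads are FPKM times GENCODE exon length and depth. Depth is thus an estimate that covers only reads counted to genes and includes the TMM scaling. The precision of most values is set by the spread between 3 replicates, which the labels do not say are separate mice.

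The genes, their roles and all lists were chosen with earlier results of these data known. Values in every library are given for genes called in any of 5 contrasts in either fit, then up to 14 in all by smallest unadjusted p, and the most abundant gene of each role. Pathway genes named are up to 3 called per list. The alternatives were other pseudocounts, filters, centring, voom on estimated reads and leaving out libraries or pairs. Promoters are from RefSeq. The table held 0 further columns of values.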

Additional observations from a re-analysis of the deposited data

How the results depend on the processing

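With the fit of group means, no gene was called with PI3Kdi in either genotype, between genotypes without PI3Kdi or for the difference of responses under any alternative other than the replicate block, which gave 1 in WT and 4 in FOXO1-GFP KO. The single call between genotypes with PI3Kdi became 0 with a pseudocount of 1 FPKM or with genes of at least 1 FPKM, and leaving out single libraries gave 1 to 2, the second being Dusp10 without WT+PI3Kdi replicate 2. With the replicate block, the 1 call in WT became 2 (Egr1 and Atf3) among genes of at least 1 FPKM or with the pair as fixed terms, 5 at any fold change, and 0 to 1 when a pair was left out. The 4 calls in FOXO1-GFP KO became 1 with a pseudocount of 1 FPKM, 2 among genes of at least 1 FPKM, 9 at any fold change, and 1 to 4 when a pair was left out, with Spred1 joining without FOXO1-GFP KO pair 1. The 1 call between genotypes with PI3Kdi became 0 with a pseudocount of 1 FPKM or genes of at least 1 FPKM, and was 0 to 1 when a pair was left out. Batf3, Egr2 and Spry1 in FOXO1-GFP KO had 0.57, -0.22 and -0.12 with a pseudocount of 1 FPKM, below the fold threshold. The filter removes Egr2 and Spry1, and the cause of the other changes was not tested. Median centring and voom kept every call with the block. With the other pseudocount, filter, centring or voom, the median of the PI3Kdi response ranged from -0.148 to -0.072 in WT. In FOXO1-GFP KO it ranged from -0.062 to -0.01. Without single libraries it ranged from -0.23 to -0.04 in WT and from -0.27 to 0.04 in FOXO1-GFP KO. The last of these medians was above 0 without FOXO1-GFP KO replicate 1 (0.04) and without FOXO1-GFP KO+PI3Kdi replicate 2 (0.002) or 3 (0.02), and that of the difference of responses (0.11) ranged from -0.075 to 0.199. Genes with few reads, Spry1 and Egr2 above all, are limited by depth.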
